A study of Mus musculus with 6 samples.

Results

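The aryl hydrocarbon receptor gene *Ahr*, its repressor gene *Ahrr* and the genes of 8 ligand-activated nuclear receptors (*Rara*, *Rarg*, *Rxra*, *Vdr*, *Nr3c1*, *Pparg*, *Thra* and *Esr1*) were compared between CD4+Lrig1+ and CD4+Lrig1- T cells. The 10 genes were chosen by name, as a fixed list, from 45777 genes, with earlier results of these data known. Bulk RNA sequencing was performed on T cells from spleens of female C57BL/6 mice, an inbred strain, at 7 weeks of age. Both groups were CD4+ cells of this strain, divided by the cell surface protein Lrig1, and the sources used here do not state how the sequenced cells were separated or how many mice gave them. The labels list 3 samples per group, and 2 libraries per group are described here, 1 of each group from each of 2 tables (set 1 and set 2). They held from 44865070 to 59977951 estimated counts, that is, read counts estimated per transcript and summed per gene. The methods describe the study's samples in general as biologically independent, but they do not say which libraries came from which mice, so the p-values measure only the spread between these libraries. *Lrig1* itself had 221 CPM (counts scaled to a common library size, as edgeR's TMM-normalized CPM) in CD4+Lrig1+ and 75.4 CPM in CD4+Lrig1- cells of set 1, and 129 against 36.7 CPM in set 2, in the order of the labels in both sets.

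Nuclear receptors are transcription factors that carry a zinc-finger DNA-binding domain and a pocket for a small, fat-soluble ligand. Retinoic acid binds the retinoic acid receptors (encoded by *Rara*, *Rarb* and *Rarg*), the active form of vitamin D binds the product of *Vdr*, thyroid hormone that of *Thra*, glucocorticoids that of *Nr3c1*, fatty acid derivatives that of *Pparg* and oestrogen that of *Esr1*. The retinoid X receptor encoded by *Rxra* is the shared partner with which the receptors for retinoic acid, vitamin D, thyroid hormone and fatty acids bind DNA as pairs. Ahr is not a nuclear receptor but a ligand-activated factor of another family, which pairs with Arnt after binding dietary, microbial or environmental compounds. In CD4+ T cells, retinoic acid is known to favour regulatory T cells (Treg cells), and Ahr is known for roles in Treg and Th17 cells.

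Windows from 250 bases before to 50 bases after the annotated start were matched from RefSeq (GRCm38.p6) for 7 of the 10 genes. The windows of *Rarg* and *Vdr* are shown because these genes had, with *Ahr*, the largest differences that went the same way in both sets, and because *Rarg* is annotated with a pair of start sites. Capitals mark AGGTCA (the core motif that many nuclear receptors bind), GCGTG (the core letters of an Ahr-Arnt site) and GGGCGG (a GC box), each on either strand, and capitals that run together hold GC boxes that overlap or adjoin.
Rarg, outer start (chr15:102257473-102257772, minus strand): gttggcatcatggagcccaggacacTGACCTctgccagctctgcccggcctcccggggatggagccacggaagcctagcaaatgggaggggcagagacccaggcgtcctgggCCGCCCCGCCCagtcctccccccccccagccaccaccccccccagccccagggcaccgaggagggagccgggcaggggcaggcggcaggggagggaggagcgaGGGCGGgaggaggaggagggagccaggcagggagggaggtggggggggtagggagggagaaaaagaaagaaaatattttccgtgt
Rarg, inner start (chr15:102246451-102246750, minus strand): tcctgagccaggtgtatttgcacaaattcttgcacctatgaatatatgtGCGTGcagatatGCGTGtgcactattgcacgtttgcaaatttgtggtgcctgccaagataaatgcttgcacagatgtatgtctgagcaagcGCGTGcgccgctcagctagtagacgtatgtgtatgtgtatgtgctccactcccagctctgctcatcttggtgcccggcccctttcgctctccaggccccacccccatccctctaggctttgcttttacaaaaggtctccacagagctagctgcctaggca
Vdr (chr15:97908247-97908546, minus strand): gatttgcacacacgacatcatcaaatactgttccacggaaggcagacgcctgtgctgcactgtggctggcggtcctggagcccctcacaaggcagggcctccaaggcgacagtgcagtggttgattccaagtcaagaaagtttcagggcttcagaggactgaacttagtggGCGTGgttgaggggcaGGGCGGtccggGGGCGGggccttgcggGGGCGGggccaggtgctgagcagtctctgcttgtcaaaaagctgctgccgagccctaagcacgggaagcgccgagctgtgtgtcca
The outer *Rarg* window holds 1 receptor core motif, 0 Ahr core motifs and 3 GC boxes, the inner window 0, 3 and 0, and the *Vdr* window 0, 1 and 3. Of 32817 such windows in the genome, 16.3% hold AGGTCA, 32.4% hold GCGTG and 35.6% hold GGGCGG. A match of letters is a description and not a bound site.

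The levels differed widely between the genes. FPKM (fragments per kilobase of transcript, scaled by the authors to the mapped fragments of the library) is the per-length scale used for comparing genes. *Rara*, *Rarg* and *Nr3c1* were the most abundant, with mean FPKM over the 4 libraries of 25.4, 20.8 and 19.1. *Thra* (8.03 FPKM) and *Rxra* (5.46 FPKM) came next, and then *Ahr* (1.64 FPKM), *Vdr* (0.815 FPKM), *Esr1* (0.556 FPKM) and *Pparg* (0.543 FPKM). *Ahrr* was last at 0.0393 FPKM. Within libraries, *Rara* exceeded *Nr3c1*, *Nr3c1* exceeded *Thra*, *Rxra* exceeded *Ahr*, *Ahr* exceeded *Vdr* and *Pparg* exceeded *Ahrr* in 4 of 4. *Thra* exceeded *Rxra*, and *Vdr* exceeded *Esr1*, in 3 of 4, and *Esr1* exceeded *Pparg* in 2 of 4. The place of *Rarg* depended on the group: at 28.7 ± 2.80 FPKM (SD, n = 2) it had the highest mean in CD4+Lrig1+ T cells, and at 12.8 ± 2.76 FPKM it stood below *Rara* and *Nr3c1* in CD4+Lrig1- T cells. The summed FPKM of all genes was from 374165 to 385076 in set 1 and from 591966 to 598247 in set 2, so groups are compared within a set. *Rarb*, the other retinoic acid receptor gene, was listed at 0 FPKM in all 4 libraries.

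**Figure D1:**
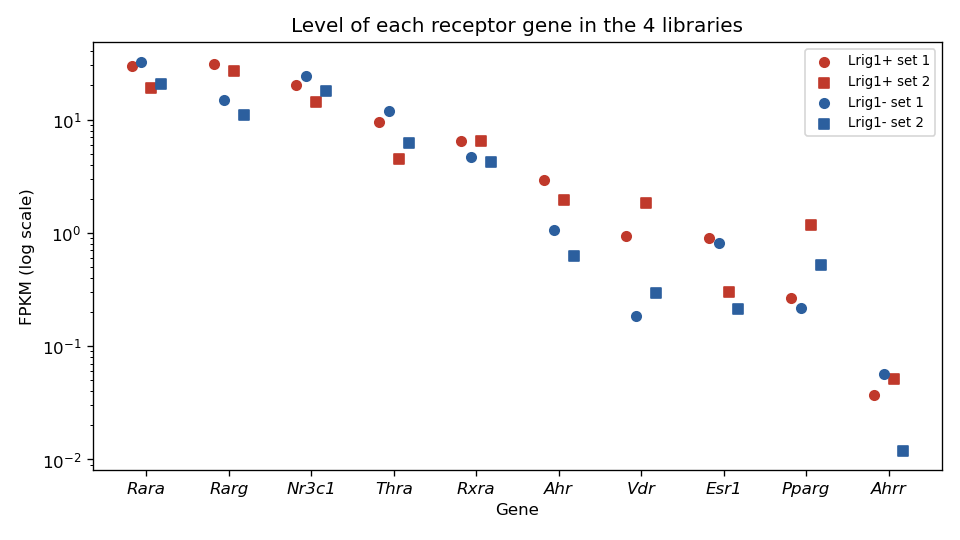
FPKM (log scale) of each gene in the 4 libraries, ordered by mean level, with colour for the group and shape for the set. *Rarg*, *Rxra*, *Ahr* and *Vdr* show each CD4+Lrig1+ point above each CD4+Lrig1- point, while *Rara* and *Thra* show a larger gap between sets than between groups.

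Of the 10 genes, 6 had the higher value in the CD4+Lrig1+ library of each set (36.5% of tested genes did), 3 had the lower value in each (41.3%) and *Ahrr* went opposite ways. *Vdr*, *Ahr* and *Rarg* were at least 2-fold higher in both sets, a size that 7.37% of the 16123 tested genes reached. None of the 10 was at least 2-fold lower in both sets, against 3.01% of tested genes. The 10 were chosen with earlier results of these data known, so the shares beside them are a description. In bulk samples such as these, fewer cells of a type and less RNA per cell cannot be told apart. In CPM, each CD4+Lrig1+ library exceeded each CD4+Lrig1- library for 4 genes (14.3% of all tested genes), and each was below for *Nr3c1* (11.8%). For the 10 genes the median of the log2 ratio (CD4+Lrig1+ over CD4+Lrig1-) was 0.13 in set 1 and 0.76 in set 2. Over all genes tested it was 0.0052 and -0.060. The medians of the 10 include *Ahrr*, which had few counts and was tested only because of its CD4+Lrig1+ libraries. The ratio of *Ahrr* lay below the median in set 1 and above it in set 2. These medians are therefore not read as a shift of the group.

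All 10 genes passed edgeR's filter on low counts, *Ahrr* only through its CD4+Lrig1+ libraries. The edgeR quasi-likelihood test over the 4 libraries called 0 of the 10 at a Benjamini-Hochberg adjusted p under 0.05, as it called 0% of all genes, whereas 3 of the 10 and 901 of 16123 genes had an unadjusted p under 0.05. Across genes, the difference between sets correlated at 0.883 between the groups, and a fit with the set as a term (the table block) was also made. It called 4 of the 10 higher (*Vdr*, *Ahr*, *Rarg* and *Rxra*) and 2 lower (*Nr3c1* and *Thra*), where 14.6% of all tested genes were called higher and 12.8% lower (27.4% in all). This fit leaves 1 residual degree of freedom. DESeq2's Wald test with the block called the same 6 of the 10 (15% of genes, 7.54% higher and 7.43% lower), and so did limma on log2(FPKM + 0.1) with it (26% of genes, 16.3% higher and 9.61% lower). Without the block, DESeq2's Wald test called 0 of the 10 (1.38% of genes, 1.2% higher and 0.187% lower). The exact test of edgeR called 0 of them (1.2% of genes, 1.11% higher and 0.0868% lower). Leaving out the CD4+Lrig1+ or the CD4+Lrig1- library of set 1 called 0 of the 10 and 0.031% or 0.273% of genes. The 70 tested genes of 7 pathway lists, described below, had 0 calls by the quasi-likelihood test without the block. An unadjusted p under 0.05 was reached by 10 of these pathway genes, beside 901 of 16123 over all genes. Of the 70, 7 passed the filter only through the CD4+Lrig1+ libraries. Of those 7, *Cyp1a1*, *Cyp26b1* and *Dio2* had an unadjusted p under 0.05. The count of 10 pathway genes is therefore no evidence about the lists. DESeq2's Wald test without the block called 3 of the 70 (*Dhrs3*, *Stra6* and *Nr3c2*), and edgeR's exact test called 2 (*Dhrs3* and *Stra6*). Below, each adjusted p given with the block is from edgeR's quasi-likelihood test, and every interval is a 95% exact binomial interval that covers counting error only.

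**Figure D2:**
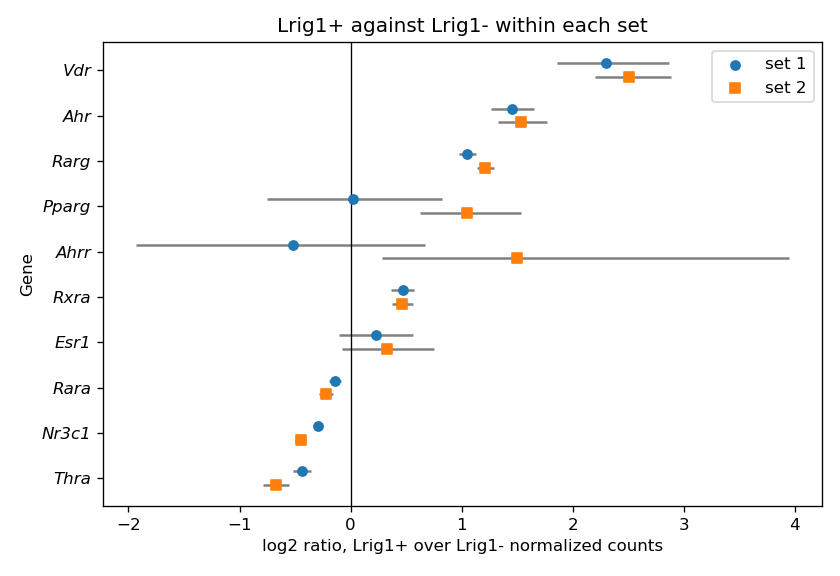
Log2 ratio of normalized counts in CD4+Lrig1+ over CD4+Lrig1- T cells for each gene in set 1 (circles) and set 2 (squares), with bars for the 95% exact binomial interval of counting error. The ratios of *Vdr*, *Ahr*, *Rarg* and *Rxra* lie above 0 in both sets with their intervals, and those of *Rara*, *Nr3c1* and *Thra* lie below 0.

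Markers of Treg cells and of other cells differed between the groups. The calls with the block given here stand beside 14.6% of all tested genes called higher and 12.8% called lower. All 10 T cell identity genes were detected, and their sum was 5611.5 against 5411 CPM in set 1 and 8944.5 against 8907 CPM in set 2. Of these 10, the block called 2 higher and 0 lower. All 8 Treg cell markers were called higher with the block, and their sum was 2456 against 266 CPM and 2360 against 248 CPM. *Foxp3*, which defines Treg cells, had a log2 fold change of 3.92. *Il2ra*, a Treg cell marker that activated effector T cells can also express, had 4.01. The summed B cell markers were at 91.6 against 72.2 CPM in set 1 and at 366 against 715 CPM in set 2. The summed myeloid markers were at 102 against 82.7 CPM and 320 against 334 CPM. The summed dendritic cell markers were at 57.7 against 116 CPM and 90.0 against 153 CPM, with 4 of 8 called lower with the block and 0 higher. The summed NK and CD8 T cell markers were at 56.9 against 98.9 CPM and 128 against 253 CPM, with 6 of 8 called lower and 1 higher, *Eomes* (log2 ratios 2.51 and 2.16). With the block 2 of 8 B cell markers were called lower and 0 higher, and 3 of 10 myeloid markers lower and 2 higher. Erythroid markers were at 6.10 against 6.14 CPM and 52.9 against 60.0 CPM. A single marker of these lists, an erythroid gene, had 0 counts in at least 1 library. The part of these cells in the receptor differences was not tested.

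*Vdr*, which encodes the vitamin D receptor, had the largest fold difference of the 10 in each set. Its single listed transcript spans chr15:97854427-97908296 of GRCm38. In set 1 it had 221 counts (4.25 CPM) in CD4+Lrig1+ and 40 counts (0.835 CPM) in CD4+Lrig1- T cells. In set 2 it had 511 counts (8.90 CPM) and 83 counts (1.54 CPM). The CD4+Lrig1+ libraries lay above the CD4+Lrig1- libraries in each set, and set 2 was higher in both groups (6.57 ± 3.29 against 1.19 ± 0.496 CPM, SD, n = 2). The log2 ratio was 2.30 in set 1 (interval 1.86 to 2.87) and 2.50 in set 2 (2.20 to 2.89), a 4.91-fold and a 5.67-fold difference. The fitted log2 fold change was 2.47 (standard error 0.67), and edgeR's quasi-likelihood test gave adjusted p = 0.688, or 0.000281 with the block. At 1.84 FPKM or less in every library, *Vdr* remained a low-level gene beside the retinoic acid receptors.

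*Rarg*, which encodes retinoic acid receptor gamma (chr15:102234938-102257522), was the abundant receptor with a clear difference in both sets. It had 89.8 and 83.3 CPM in the CD4+Lrig1+ libraries of sets 1 and 2, and 43.3 and 35.9 CPM in the CD4+Lrig1- libraries. The groups did not overlap, and libraries of a group lay close together (86.6 ± 4.58 against 39.6 ± 5.23 CPM, SD, n = 2). The log2 ratio was 1.05 in set 1 (interval 0.98 to 1.13) and 1.21 in set 2 (1.14 to 1.29). The log2 fold change was 1.13 (standard error 0.28), and edgeR's quasi-likelihood test gave adjusted p = 0.654, or 0.000104 with the block.

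*Rara*, which encodes retinoic acid receptor alpha (chr11:98927800-98974942), was lower by a small amount in each set and was not called by any fit. Its CPM were 100.1 and 68.0 in the CD4+Lrig1+ and 110 and 79.3 in the CD4+Lrig1- libraries, so the groups overlapped and set 1 was above set 2 in both. Its log2 ratio was -0.14 in set 1 and -0.22 in set 2, with an adjusted p = 0.10 with the block. The log2 fold change over the 4 libraries, -0.17 (standard error 0.37), became 0.12 once the set 1 CD4+Lrig1- library was left out, and 0.079 without the CD4+Lrig1+ library of set 2. *Rarg* made up 50.7% and 58.5% of the summed retinoic acid receptor FPKM in the CD4+Lrig1+ libraries of sets 1 and 2, and 31.4% and 34.5% in the CD4+Lrig1- libraries. *Rarg* was at 1.03 and 1.41 times the FPKM of *Rara* in CD4+Lrig1+ T cells, and at 0.458 and 0.528 times in CD4+Lrig1- T cells.

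The 4 listed *Rarg* transcripts begin at the inner start at position 102246500 (1 transcript) or at the outer start between 102257146 and 102257522 (3 transcripts). The windows printed above are those of the starts at 102246500 and 102257522. The inner start carried 18.7 and 16.4 FPKM in the CD4+Lrig1+ libraries of sets 1 and 2, and 9.30 and 8.12 FPKM in the CD4+Lrig1- libraries. The outer start carried 12.1 and 10.4 FPKM, and 5.49 and 2.76 FPKM. Both starts had more FPKM in the CD4+Lrig1+ library of each set, and the log2 ratio of FPKM + 0.1 was 1.00 and 1.00 at the inner and 1.12 and 1.87 at the outer start. Transcripts of both starts share exons, so the authors' estimation could have moved reads between them, and no test was made at this level.

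**Figure D3:**
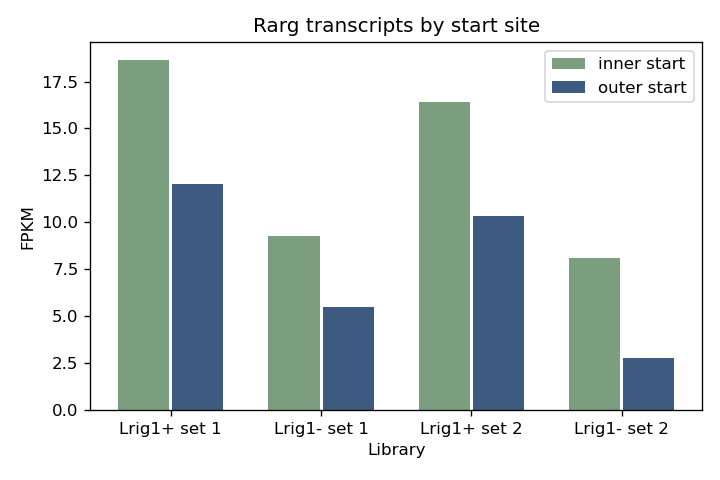
FPKM of *Rarg* transcripts that begin at the inner start (green) and the outer start (blue) in each library, as bars from 0. The inner start carries the larger part in all 4 libraries, and each CD4+Lrig1+ bar stands above the CD4+Lrig1- bar of its set.

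*Rxra*, which encodes the shared partner receptor (chr2:27676445-27763319), had the smallest spread within groups relative to its level. It had 35.5 and 36.3 CPM in the CD4+Lrig1+ libraries, and 25.7 and 26.3 CPM in the CD4+Lrig1- libraries. The groups did not overlap, and the 1.38-fold difference was the same in both sets (log2 ratio 0.47 in each, intervals 0.36 to 0.57 and 0.37 to 0.57). For *Rxra* the log2 fold change was 0.47 (standard error 0.26), and edgeR's quasi-likelihood test gave an adjusted p above 0.99, or 0.00742 with the block. *Rxrb*, its abundant paralogue, had log2 ratios of -0.17 and -0.21 (adjusted p = 0.081 with the block), and *Rxrg* did not pass the filter.

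Of 12 genes of retinoid uptake, synthesis and breakdown, 8 were tested. Of these, 3 (*Aldh1a2*, *Cyp26b1* and *Crabp2*) passed the filter on low counts only through the CD4+Lrig1+ libraries, so no count or median over the list is given. *Stra6*, the cell surface receptor that takes up retinol from its carrier protein, had 292 and 382 counts in the CD4+Lrig1+ libraries against 27 and 17 in the CD4+Lrig1- libraries. Its log2 ratio was 3.23 in set 1 and 4.25 in set 2 (adjusted p = 0.000237 with the block). *Dhrs3*, which turns retinaldehyde back into retinol and so limits retinoic acid, had 12.5 and 14.8 CPM against 1.96 and 2.39 CPM. Its log2 ratio was 2.65 and 2.61 (adjusted p = 3.78e-05 with the block). *Rdh10*, which carries out the opposite oxidation of retinol, had log2 ratios of -0.31 and -0.28 (adjusted p = 0.119 with the block). The 3 genes that passed only through CD4+Lrig1+ are given as counts, and they are named here after their values were seen. *Cyp26b1*, which degrades retinoic acid, had 20 and 16 counts in the CD4+Lrig1+ libraries and 0 in both CD4+Lrig1- libraries, which allows up to 3 counts in each. *Aldh1a2*, which makes retinoic acid, had 19 and 30 counts against 0 and 4, and *Crabp2*, which encodes a carrier of retinoic acid, had 20 and 24 against 4 and 0.

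*Ahr* (chr12:35497979-35534989) was higher in CD4+Lrig1+ T cells by a similar amount in both sets. It had 875 and 680 counts in the CD4+Lrig1+ libraries of sets 1 and 2, and 293 and 219 counts in the CD4+Lrig1- libraries. These were 16.8 and 11.8 CPM against 6.12 and 4.05 CPM, without overlap (14.3 ± 3.53 against 5.09 ± 1.46 CPM, SD, n = 2). The log2 ratio was 1.45 in set 1 (interval 1.27 to 1.66) and 1.54 in set 2 (1.32 to 1.77). For *Ahr* the log2 fold change was 1.49 (standard error 0.43), and edgeR's quasi-likelihood test gave adjusted p = 0.705, or 0.000233 with the block.

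*Ahrr*, which encodes the repressor that competes with Ahr for Arnt, was close to the limit of detection. It had 10 and 16 counts in the CD4+Lrig1+ libraries and 14 and 4 counts in the CD4+Lrig1- libraries. The groups overlapped, and the interval of the log2 ratio ran from -1.94 to 0.67 in set 1 and from 0.28 to 3.95 in set 2, so the sets went opposite ways and the set 1 interval included 0. Its log2 fold change of 0.36 became -0.31 without the CD4+Lrig1- library of set 2.

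Of 12 genes that act with Ahr or respond to it, 8 were tested, of which *Cyp1a1* and *Nqo1* passed the filter only through the CD4+Lrig1+ libraries. With the table block *Arnt2* was called higher and *Tiparp* lower among the rest (beside 14.6% and 12.8% of all genes). *Arnt*, the partner of Ahr, had 89.9 and 65.7 CPM in CD4+Lrig1+ and 90.0 and 72.5 CPM in CD4+Lrig1- T cells, which overlapped (adjusted p = 0.532 with the block). Its less abundant paralogue *Arnt2* had log2 ratios of 1.05 and 1.29 (adjusted p = 0.0259 with the block). *Tiparp*, an ADP-ribosyltransferase that Ahr induces and that restrains Ahr, was lower, with 18.4 and 17.2 CPM against 26.5 and 27.3 CPM (log2 ratios -0.53 and -0.67, adjusted p = 0.00393 with the block). *Cyp1a1*, the classical induced target, is named after its values were seen. It had 43 and 69 counts in the CD4+Lrig1+ libraries against 6 and 10 in the CD4+Lrig1- libraries, and is given as counts because it entered the test through the group where it is high. *Nqo1*, another target, had 11 and 37 counts against 16 and 11. The chaperone gene *Hsp90ab1* had a log2 fold change of 0.30 and was not called by the quasi-likelihood test with or without the block.

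*Nr3c1*, which encodes the glucocorticoid receptor, was the one gene of the 10 with each CD4+Lrig1+ library below each CD4+Lrig1- library in CPM. In FPKM the groups overlapped: the CD4+Lrig1+ library of set 1, at 20.2, exceeded the CD4+Lrig1- library of set 2, at 17.98. It had 135 and 104 CPM in the CD4+Lrig1+ and 166 and 141 CPM in the CD4+Lrig1- libraries. The gap between 135 and 141 CPM across sets was small beside the spread within groups (119 ± 22.2 against 153 ± 17.2 CPM, SD, n = 2). The log2 ratio was -0.29 in set 1 (interval -0.34 to -0.25) and -0.45 in set 2 (-0.50 to -0.40). For *Nr3c1* the log2 fold change was -0.36 (standard error 0.32), and edgeR's quasi-likelihood test gave an adjusted p above 0.99, or 0.0114 with the block.

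All 15 genes of a glucocorticoid response list were tested. With the table block 4 were called higher and 5 lower (beside 14.6% and 12.8% of all genes), and the median log2 ratio was -0.064 in set 1 and -0.22 in set 2. *Sgk1*, a kinase that glucocorticoids induce, had 40.0 and 25.4 CPM in CD4+Lrig1+ against 85.8 and 84.8 CPM in CD4+Lrig1- T cells (log2 ratios -1.10 and -1.74, adjusted p = 0.000468 with the block). *Il7r*, the interleukin-7 receptor gene of resting T cells, had log2 ratios of -0.90 and -1.61 (adjusted p = 0.0014 with the block). *Zbtb16*, a transcription factor gene of innate-like T cells, had log2 ratios of -1.99 and -1.76 (adjusted p = 0.000152 with the block), with 5.83 against 23.2 CPM in set 1 and 1.31 against 4.52 CPM in set 2. *Klf9*, a transcription factor gene that glucocorticoids and thyroid hormone induce, was higher, with 10.2 and 8.44 CPM against 4.26 and 3.31 CPM (log2 ratios 1.26 and 1.34, adjusted p = 0.000969 with the block). The other called genes are named after their values were seen. *Tsc22d3* had log2 ratios of -0.69 and -1.07 and *Hsd11b1* of -0.48 and -0.56 (adjusted p = 0.00132 and 0.00204 with the block). *Dusp1* had log2 ratios of 0.99 and 1.36, *Fkbp5* of 0.35 and 0.63 and *Hsp90aa1* of 0.24 and 0.35 (adjusted p = 0.000258, 0.00591 and 0.0385 with the block). *Per1*, *Zfp36* and the other 4 genes of the list were not called. The called genes of this list went both ways.

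*Thra*, which encodes thyroid hormone receptor alpha (chr11:98740776-98769006), varied more between sets than between groups. It had 42.2 and 17.6 CPM in the CD4+Lrig1+ libraries and 57.2 and 28.0 CPM in the CD4+Lrig1- libraries. CD4+Lrig1+ was the lower library in each set while the groups overlapped over the sets. The log2 ratio was -0.44 in set 1 and -0.67 in set 2, and the adjusted p was 0.0054 with the block. The log2 fold change over the 4 libraries, -0.51 (standard error 0.62), became 0.13 without the CD4+Lrig1- library of set 1. The end of *Thra* overlaps *Nr1d1*, which lies on the other strand, by 1075 bases, and 2 of its 3 listed transcripts reach into that gene. The library kit keeps the strand, but no source states that the estimation used it, so reads from the overlap could belong to either gene. *Nr1d1*, which encodes the receptor Rev-erb alpha, had log2 ratios of -0.43 and -0.33 (adjusted p = 0.152 with the block). *Thrb*, the paralogue, was at 2.13 to 3.06 CPM, with log2 ratios of 0.13 and -0.38.

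Of 8 genes that handle thyroid hormone or vitamin D, 4 were tested, of which *Dio2* passed the filter only through the CD4+Lrig1+ libraries. *Slc16a10*, called with the block among the rest, encodes a transporter of thyroid hormones and aromatic amino acids. It had 9.56 and 10.6 CPM in CD4+Lrig1+ against 19.5 and 22.8 CPM in CD4+Lrig1- T cells, with log2 ratios of -1.03 and -1.10 (adjusted p = 0.000423 with the block). *Dio2*, which converts the prohormone to active thyroid hormone, had 47 and 45 counts against 10 and 4, and is named after its values were seen. *Cyp24a1*, the target of the vitamin D receptor that breaks the vitamin down, had 0 counts in all 4 libraries. It therefore did not pass the filter on low counts.

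*Pparg* (chr6:115360879-115490404) and *Esr1* (chr10:4611989-5005633) were low and showed no difference that held against their counting error in both sets. *Pparg* had 31 and 134 counts in the CD4+Lrig1+ libraries and 28 and 60 counts in the CD4+Lrig1- libraries. Its log2 ratio was 0.03 in set 1 (interval -0.76 to 0.82) and 1.05 in set 2 (0.62 to 1.53), so the CD4+Lrig1+ library stood out in set 2 and not in set 1. The log2 fold change of 0.79 became -0.51 without that CD4+Lrig1+ library of set 2. *Esr1* had 172 and 118 counts against 135 and 88 counts, with log2 ratios of 0.23 (interval -0.10 to 0.57) and 0.33 (-0.08 to 0.75). Its log2 fold change of 0.27 became -0.090 once the set 1 CD4+Lrig1+ library was left out, and -0.073 without the CD4+Lrig1- library of set 2. The adjusted p with the block was 0.331 for *Pparg* and 0.477 for *Esr1*.

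Of 12 genes that respond to the PPAR and LXR lipid receptors, 10 were tested. Among them *Lpl* passed the filter only through the CD4+Lrig1+ libraries, so no median over the list is given. With the block 2 were called higher and 2 lower (beside 14.6% and 12.8% of all genes). *Plin2*, a lipid droplet protein gene, had log2 ratios of 0.54 and 0.71 (adjusted p = 0.00576 with the block), and *Angptl4*, a lipase inhibitor gene, had 0.65 and 0.98 (adjusted p = 0.0378 with the block). *Mylip*, a ligase gene that LXR induces, was lower at -0.65 and -1.10 (adjusted p = 0.00141 with the block). *Abca1*, the other gene called lower and named after its values were seen, had -0.34 and -0.49 (adjusted p = 0.0159 with the block). *Lpl*, the lipoprotein lipase gene, had 51 and 94 counts against 3 and 65, and was not called with the block.

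Of 20 further ligand receptor genes, 11 passed the filter, and their median log2 ratio was -0.080 (set 1) and -0.14 (set 2). With the block 2 were called higher and 0 lower (beside 14.6% and 12.8% of all genes). *Nr3c2*, which encodes the mineralocorticoid receptor that also binds glucocorticoids, had 177 and 144 counts in the CD4+Lrig1+ libraries against 21 and 14 in the CD4+Lrig1- libraries. Its log2 ratio was 2.85 in set 1 and 3.10 in set 2 (adjusted p = 0.000766 with the block), the opposite direction to *Nr3c1*, although *Nr3c2* stayed below 3.5 CPM. *Rora* had log2 ratios of 0.26 and 0.57 (adjusted p = 0.0243 with the block).

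Coregulators, the proteins through which receptors act on chromatin, showed small differences. Of 14 tested genes of 15, the block called 1 higher and 6 lower (beside 14.6% and 12.8% of all genes). The median log2 ratio was -0.13 in set 1 and -0.35 in set 2. *Nrip1*, a corepressor gene, was the higher one, with log2 ratios of 0.46 and 0.42 (adjusted p = 0.00413 with the block). *Crebbp*, *Med1* and *Ppargc1b*, all coactivator genes, had log2 ratios of -0.31 and -0.62, -0.26 and -0.44, and -0.48 and -0.54 (adjusted p = 0.0109, 0.0148 and 0.00931 with the block). The other 3 called lower, named after their values were seen, were the coactivator gene *Ncoa2* (-0.23 and -0.42) and the corepressor complex genes *Ncor1* (-0.27 and -0.35) and *Tbl1x* (-0.21 and -0.48), with adjusted p = 0.0244, 0.0308 and 0.0248 with the block. The levels of *Crebbp*, *Med1*, *Ppargc1b*, *Ncoa2*, *Ncor1* and *Nrip1* differed more between sets than between groups. *Crebbp* was at 276 and 342 CPM in set 1 and at 39.7 and 61.2 CPM in set 2. *Ncor1* was at 508 and 614 CPM in set 1 and at 148 and 188 CPM in set 2.

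**Figure D4:**
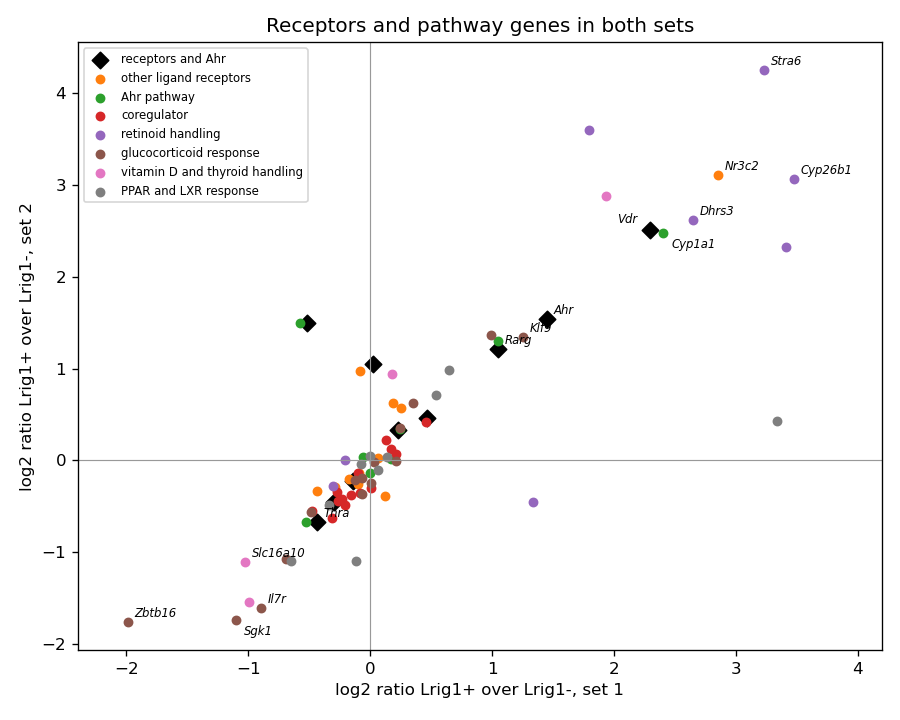
Log2 ratio between the groups (CD4+Lrig1+ over CD4+Lrig1-) in set 1 (x axis) against set 2 (y axis) for the 10 genes (black diamonds) and the tested genes of the 7 lists (coloured circles). *Stra6*, *Dhrs3*, *Nr3c2*, *Vdr*, *Ahr* and *Rarg* lie at the upper right, and *Zbtb16*, *Sgk1*, *Il7r* and *Slc16a10* at the lower left. The circles include 7 genes, such as *Cyp1a1* and *Cyp26b1*, that passed the filter on low counts only through the CD4+Lrig1+ libraries.

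The genes with the profile most like each receptor were sought among 10520 other genes with a mean of at least 200 counts, by Euclidean distance between log2 CPM over the 4 libraries, each gene centred on its own mean. The nearest gene was *Synj2* for *Ahr* (distance 0.092), *6330403K07Rik* for *Vdr* (0.157) and *Zfp316* for *Rarg* (0.096). It was *Pam* for *Rxra* (0.019), *Creb1* for *Rara* (0.0041), *Ap2a2* for *Nr3c1* (0.013) and *Eif4a2* for *Thra* (0.028). Within a distance of 0.2 lay 446 genes for *Rara* and 259 for *Nr3c1*, but 13 for *Rarg*, 4 for *Ahr* and 1 for *Vdr*. With 4 libraries such likeness is a description.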

How the data were processed

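RNA of CD4+Lrig1+ and CD4+Lrig1- splenic T cells was sequenced as paired-end reads from a stranded mRNA kit. Per the labels and methods, the authors used Trimmomatic 0.38 for trimming, HISAT2 2.1.0 for mapping and StringTie 2.1.3b for assembly, and the submitters' processing notes also name Bowtie2 2.3.4.1 and the build GRCm38 (mm10). The estimated counts were deposited by the authors per RefSeq transcript without normalization. The FPKM values were deposited by the authors scaled to transcript length and mapped fragments. Another 6 columns of per-sample values, whose names do not show the Lrig1 group, were not used here.

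Estimated counts (whole numbers) and FPKM were summed per gene symbol with Python 3.11.15. With edgeR 4.0.16 (R 4.3.3), low genes were removed by filterByExpr (minimum count 10), libraries were scaled by TMM, and the quasi-likelihood test was run with Benjamini-Hochberg adjustment over 16123 genes. Standard errors are the log2 fold change divided by the root of the F statistic. A prior count of 2 was added for log2 ratios inside each set. Alternatives were DESeq2 1.42.0 size factors and its Wald test, edgeR's exact test, other filters, limma 3.58.1 on FPKM (log2 after adding 1 or 0.1), the table block, and leaving out each library. DESeq2 and limma with the table block were chosen after seeing the data. The tests were first tried on simulated counts. An exact permutation test of 2 libraries against 2 cannot give a p below 0.333. Depth ranged from 44865070 to 59977951 counts.

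The 10 genes and the lists were chosen with earlier results of these data known. Named are the 10 genes, up to 4 genes of each pathway list with the largest absolute mean log2 ratio and the same sign in both sets and a mean of at least 50 counts, the Treg cell markers, and the nearest gene for members with a mean of at least 200 counts. Other genes (such as *Arnt*, *Rarb*, *Rxrb*, *Thrb* and *Cyp24a1*) were named after their values were seen. Some genes that the rule names are not reported here.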

Additional observations from a re-analysis of the deposited data

How the results depend on the processing

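The quasi-likelihood test called 0 genes and 0 of the 10 receptors, with 901 genes at an unadjusted p under 0.05. DESeq2's Wald test called 318 genes (275 higher, 43 lower) and edgeR's exact test 193 (179 higher, 14 lower), and neither called a receptor. The columns carry no replicate numbers, so the replicate block was the table that holds a library, and with it 4414 genes and 6 receptors were called. With the same block, DESeq2's Wald test called 3442 genes and 6 receptors and limma on log2(FPKM + 0.1) called 4185 and 6, both chosen after seeing the data. Across genes, the difference between sets correlated at 0.883 between the groups. Leaving out each library in turn gave 0 to 44 genes (in set 1, 5 on leaving out CD4+Lrig1+ and 44 on leaving out CD4+Lrig1-) with 0 receptors. Over these 4 fits, in which the sets are not balanced, the log2 fold change ran from -0.31 to 1.69 for *Ahrr*, -0.45 to 0.12 for *Rara*, -0.51 to 1.5 for *Pparg*, -1.25 to 0.13 for *Thra* and -0.090 to 0.76 for *Esr1*, and from 1.23 to 1.86 for *Ahr*, 1.00 to 1.31 for *Rarg*, 0.45 to 0.52 for *Rxra*, 1.84 to 2.97 for *Vdr* and -0.54 to -0.18 for *Nr3c1*. On log2(FPKM + 1), a scale that understates the change of low genes, limma gave a log2 fold change of 0.92 for *Vdr*, 0.90 for *Ahr*, 0.28 for *Pparg*, 0.085 for *Esr1* and 0.014 for *Ahrr*. Within a set, DESeq2 size factors gave a log2 ratio of -0.20 for *Rara*, -0.35 for *Nr3c1* and -0.028 (turned from 0.026) for *Pparg* in set 1. The ratio of FPKM + 0.1 gave -0.12 for *Rara*, 0.60 for *Rxra*, -0.32 for *Nr3c1* and -0.47 for *Thra* in set 2, and -0.34 for *Thra* in set 1. The cause was not tested. *Ahrr* had no value where at least 10 counts were required in every library. Leaving out a library could not be combined with the block, which would leave no residual degree of freedom.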

Other observations

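The split of FPKM between the listed transcripts varied between libraries for several of the receptor genes. For *Rxra* the transcript that begins at position 27677201 of chromosome 2 carried 92.5% and 90.6% of the gene's FPKM in the CD4+Lrig1+ and CD4+Lrig1- libraries of set 1, and 7.32% against 100% in set 2. The transcripts that begin at 27709292 and 27710583 carried 46.0% and 37.8% in the CD4+Lrig1+ library of set 2 and 0% in its CD4+Lrig1- library, while the summed counts of *Rxra* differed by the same 1.38-fold in both sets. For *Rara* the starts between 98937204 and 98937718 of chromosome 11 carried 32.2% and 71.0% in set 1, and 81.8% and 88.1% in set 2. The transcript of *Rara* that begins at 98960471 was at 10.5 FPKM in CD4+Lrig1+ against 7.16 in CD4+Lrig1- T cells of set 1 and at 2.73 against 1.74 FPKM in set 2. For *Thra*, the transcript of 5844 bases carried 54.5% and 62.4% of the FPKM in set 1, and 31.7% and 39.1% in set 2. At the low levels of *Pparg*, its first group of starts carried 100% in both libraries of set 1, and 20.8% and 0% in the CD4+Lrig1+ and CD4+Lrig1- libraries of set 2. For *Esr1*, the first group of starts carried 27.7% and 16.4% in set 1, and 91.8% and 100% in set 2. For *Nr3c1*, the second group carried 2.67% and 0.144% in set 1, and 1.18% and 11.5% in set 2. These shares come from the authors' estimation, which assigns reads among transcripts that share exons, and they were not tested.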
